A study of Saccharomyces cerevisiae with 7 samples.

Results

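The 66 genes described here encode, by their names, proteins of the mitochondrial ribosome of budding yeast, Saccharomyces cerevisiae. They were chosen by gene symbol alone: every gene of the array's annotation named MRP, MRPL or MRPS with a number, or RSM with a number, was taken, giving 66 of the 5449 genes tested. RNA abundance was measured on a one-colour Affymetrix array in 7 samples of total RNA, 2 from an ssn6 deletion strain, 2 from a tup1 deletion strain and 3 from wild type. All strains were in the background BY4742, a haploid laboratory strain of the alpha mating type with auxotrophies in histidine, leucine, lysine and uracil synthesis, and each 200 mL culture in YEP, a rich medium, with 2% glucose was harvested at an OD600 of 0.8. The labels do not say that replicates came from separate cultures or that a deletion was made in more than 1 clone, so the p-values reflect only how far these samples differ among themselves, and that spread may be technical.

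Mitochondria carry their own ribosome, which makes the few proteins that mitochondrial DNA encodes, most of them core subunits of the respiratory chain and the ATP synthase. Nearly all proteins of this ribosome are encoded in the nucleus, made in the cytosol and imported. Many have a counterpart in the bacterial ribosome, while others were acquired by mitochondria and have none. Ssn6 and Tup1 are subunits of one corepressor that DNA-binding repressors bring to promoters, and yeast grown on glucose relies mainly on fermentation, so mitochondrial translation is not essential under these conditions.

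Of the 66 genes, 37 encode large-subunit proteins and 27 small-subunit proteins. Among the large-subunit proteins 23 have a bacterial counterpart and 14 do not, and among the small-subunit proteins 17 do and 10 do not. The other two are RSM22, for a methyltransferase-like protein of the small subunit, and MRP8, whose product is no ribosomal subunit despite its name. Each gene had 1 probe set, and all 66 symbols were the same in the R64 gene table.

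The arrays matched their labels in the deleted genes. CYC8, the gene of Ssn6, read 5.62 and 6.07 on the log2 scale in the ssn6 deletion, against 11.22, 11.32 and 11.24 in wild type, and TUP1 read 4.69 and 5.07 where it was deleted, against 12.50, 11.56 and 12.19 in wild type. The alpha-cell receptor gene STE3 was well above background in wild type (12.17 to 12.41), while the a-cell receptor gene STE2 read 12.10 and 12.28 on the ssn6 arrays and 10.99 and 10.63 on the tup1 arrays, against 7.89 to 8.27 in wild type. The background level was taken as the 95th percentile of the fission yeast probe sets that the array also holds, which lay between 5.50 and 5.67. One array stood apart from the rest in a control for RNA integrity: the log2 signal at the 3' end of ACT1 exceeded that at its 5' end by 2.06 in wild-type replicate 2, and by 0.30 to 0.61 elsewhere. How few arrays there are limits the precision of each value.

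All 66 genes were above background on all 7 arrays, their lowest single reading being 8.80. Their median log2 level was 10.96 and 10.92 on the ssn6 arrays, 11.09 and 11.15 on the tup1 arrays, and 11.09, 11.30 and 11.23 on the wild-type arrays. Both ssn6 medians thus lay below the other 5, whereas the tup1 medians lay within the wild-type range. Set against the median of all genes on the same array, the 66 genes stood at 0.00 and −0.03 in the ssn6 deletion and at 0.08 and 0.18 in the tup1 deletion, against 0.08, 0.24 and 0.27 in wild type. Each array reads the pooled RNA of a culture, so fewer cells carrying a transcript and less RNA per cell cannot be told apart.

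**Figure D1:**
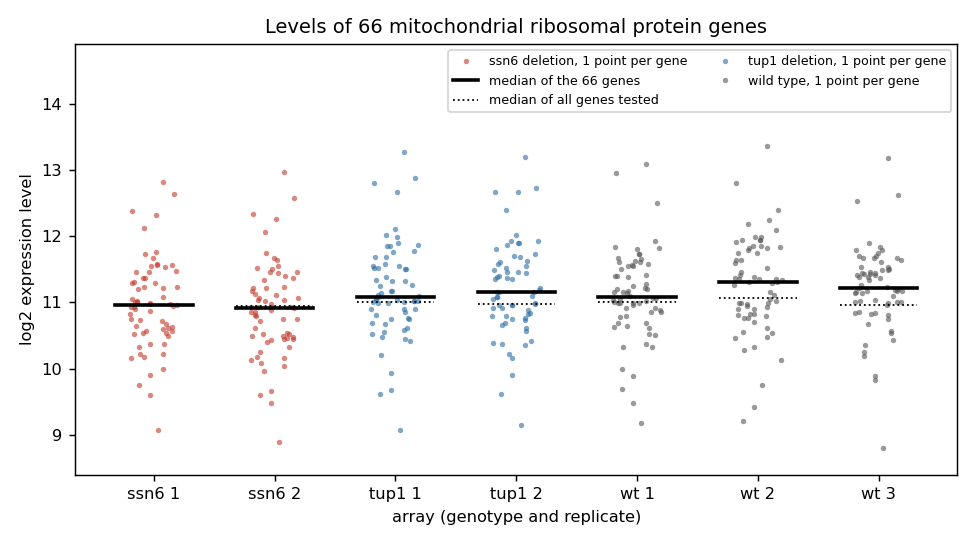
Log2 expression level (vertical axis) of the 66 genes on each of the 7 arrays (horizontal axis), 1 point per gene, with the median of the 66 genes as a thick line and the median of all genes tested as a dotted line. The medians of the 66 genes are 10.96 and 10.92 on the ssn6 arrays, below all other arrays.

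The spread between replicates was measured as the range within each genotype. The 2 ssn6 arrays differed by a median of 0.10 over the 66 genes and the 2 tup1 arrays by 0.12, while the range over the 3 wild-type arrays had a median of 0.36. Over all genes tested these medians were 0.08, 0.21 and 0.41. Among the wild-type arrays, replicate 2 held the highest value for 35 of the 66 genes, against 42.9% of all genes. Replicate 1 held the highest value for 9 of the 66, against 28.1% of all genes. It held the lowest value for 33 of the 66, against 30.5% of all genes. The widest range belonged to MRPS16, a small-subunit gene with a bacterial counterpart, which read 11.14, 12.19 and 11.90 in wild type. MRP21, also of the small subunit, read 9.69, 9.21 and 10.19 there, and RSM22 read 9.19, 9.76 and 8.80.

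In the ssn6 deletion part of the set was modestly lower. Relative to wild type, 10 of the 66 genes (15.2%) fell and 1 rose in the ssn6 deletion at an adjusted p of 0.05 (limma, Benjamini-Hochberg over all genes), while 55 did not pass. Over all 5449 genes tested, 19.4% were called in either direction, 10.3% lower and 9.18% higher. The share of falls among the 66 depended on scaling: it was 7.58%, against 8.06% of all genes, after centring each array on its median, and 10.6%, against 10.4%, after quantile normalization. The difference of these shares from those of all genes was not tested. The 10 falls ran from −0.47 to −0.70 on the log2 scale, or −27.8% to −38.3% relative to wild type, and none of the 66 genes changed 2-fold. On all 10, both ssn6 arrays lay below all 3 wild-type arrays, as for 39.1% of all genes. Since the calls came from the same arrays, this adds no separate support.

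The lower values were not limited to the genes that passed. The difference was below 0 for 57 of the 66 genes (86.4%), against 63.6% of all genes tested, and the median difference was −0.28 (17.7% lower), against −0.14 over all genes. Both ssn6 arrays lay below all wild-type arrays for 39 of the 66 genes (59.1%), against 39.1% of all genes, and above them for 1 gene, against 20.3% of all genes. Without wild-type replicate 2 the median was −0.19, against −0.13 over all genes. Before adjustment 21 of the 66 genes had a p under 0.05 and were lower and 1 was higher (33.3% in either direction), against 22.8% lower and 13.4% higher over all genes (36.2% in either direction).

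Of the 10 genes that fell, 3 belong to the small subunit. RSM24, for a small-subunit protein without a bacterial counterpart, read 10.90 and 10.86 in the ssn6 deletion, 11.35 and 11.38 in the tup1 deletion, against 11.67, 11.35 and 11.70 in wild type. It fell by 0.70 ± 0.15 in the ssn6 deletion (SE, adjusted p = 0.0195), the largest fall in the set. RSM23, whose product is related to the mammalian apoptosis mediator DAP3, read 10.38 and 10.46 in the ssn6 deletion, against 11.20, 10.996 and 10.99 in wild type. It fell by 0.65 ± 0.15 (adjusted p = 0.0247). MRPS17, which has a bacterial counterpart, read 10.17 and 9.96 in the ssn6 deletion, 10.68 and 10.80 in the tup1 deletion, against 10.64, 10.77 and 10.67 in wild type. Its fall was 0.63 ± 0.13 (adjusted p = 0.0191), and its tup1 and wild-type readings overlapped.

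The other 7 falls were in large-subunit genes. MRPL3 read 11.29 and 11.18 in the ssn6 deletion, 11.55 and 11.49 in the tup1 deletion, against 11.84, 11.91 and 11.79 in wild type, without overlap between any of the 3 genotypes. It fell by 0.61 ± 0.12 in the ssn6 deletion (adjusted p = 0.016). MRPL15, whose product pairs with that of MRPL3 in the large subunit, both having the fold of ribonuclease III, read 10.37 and 10.44 in the ssn6 deletion, against 10.97, 10.82 and 10.84 in wild type. It fell by 0.47 ± 0.12 (adjusted p = 0.0376).

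MRPL11 encodes the counterpart of the bacterial protein that carries the ribosomal stalk. It read 10.75 and 10.50 in the ssn6 deletion, against 11.16, 11.37 and 11.16 in wild type, a fall of 0.61 ± 0.14 (adjusted p = 0.0278). MRPL32, whose product is trimmed by a protease of the inner membrane before it joins the ribosome, read 10.63 and 10.45 in the ssn6 deletion, against 10.92, 11.36 and 11.17 in wild type. Its fall was 0.61 ± 0.16 (adjusted p = 0.0415). In both genes the ssn6 readings lay below every wild-type reading, with the wild-type arrays of MRPL32 spread over 0.44.

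MRP20, the counterpart of the bacterial protein at the exit of the peptide tunnel, read 10.52 and 10.62 in the ssn6 deletion, against 11.20, 10.90 and 11.22 in wild type, and fell by 0.54 ± 0.15 (adjusted p = 0.0434). MRPL24 read 9.995 and 10.03 in the ssn6 deletion, against 10.37, 10.62 and 10.75 in wild type, a fall of 0.56 ± 0.15 (adjusted p = 0.043). MRP7 read 10.98 and 10.93 in the ssn6 deletion, against 11.54, 11.39 and 11.42 in wild type, and fell by 0.50 ± 0.12 (adjusted p = 0.0323). MRPL24 and MRP7 both encode large-subunit proteins with a bacterial counterpart, and their readings did not overlap between these genotypes.

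**Figure D2:**
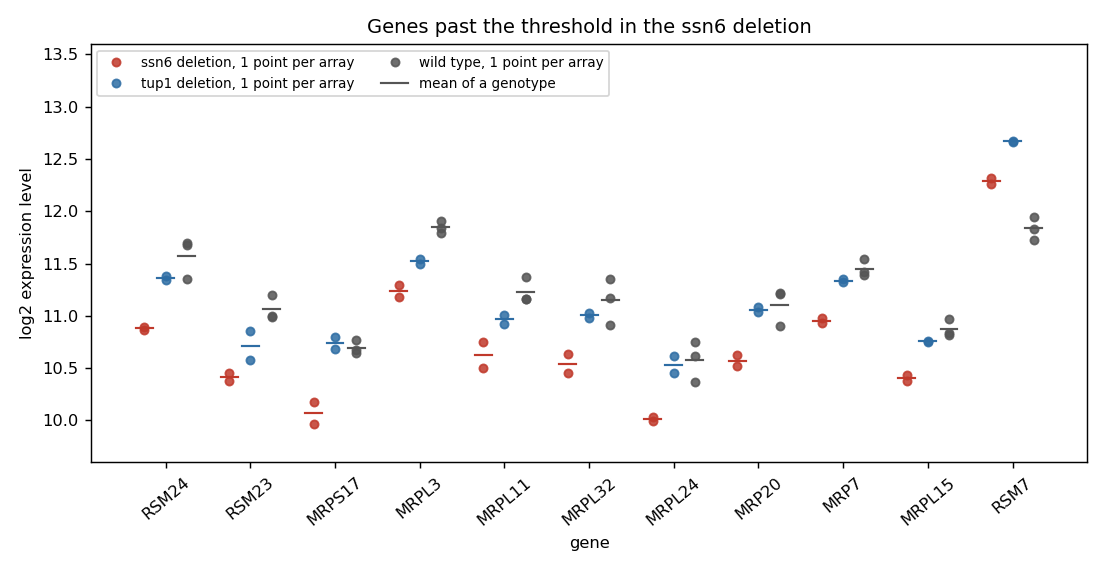
Log2 expression level (vertical axis) of the 10 genes that fell and of RSM7, which rose, in the ssn6 deletion, with 1 point per array and a dash at the mean of each genotype. For the first 10 genes both ssn6 points lie below all wild-type points, and for RSM7 the ssn6 and tup1 points lie above them.

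The number of falls moved with the arrays used, among the 66 genes and among all genes alike. With 1 ssn6 array left out, 0 of the 66 genes passed as lower, against 1.43% of all genes without replicate 1 and 0.954% without replicate 2. Those fits take the spread of the single ssn6 array from the tup1 and wild-type arrays. Without wild-type replicate 1, 2 or 3 the counts were 5, 12 and 6, against 6.44%, 11.8% and 8.52% of all genes. Without either tup1 array the count was 8, against 11.2% of all genes. After centring each array on its median, 5 of the 10 genes still passed, namely RSM24, RSM23, MRPS17, MRPL3 and MRPL11.

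Neither subunit and neither evolutionary class held the falls alone. In the large subunit 7 of 37 genes fell (18.9%) and 0 rose, with a median difference of −0.27. In the small subunit 3 of 27 fell (11.1%) and 1 rose, with a median of −0.30. Over all genes 10.3% fell and 9.18% rose. Of the genes with a bacterial counterpart 6 of 40 fell and the median was −0.23. Of those without one 4 of 24 fell and the median was −0.31, and all 24 had differences below 0, from −0.02 to −0.70. No difference between these classes was tested. All 9 differences above 0 were in genes with a bacterial counterpart, among them MRPS16 (0.35 ± 0.30), MRPL6 (0.26 ± 0.17) and MRPL39 (0.19 ± 0.16), of which none passed.

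RSM7 went the other way from most of the set. It encodes the counterpart of bacterial S7, a protein that binds the ribosomal RNA in the head of the small subunit. RSM7 read 12.32 and 12.26 in the ssn6 deletion, 12.67 and 12.66 in the tup1 deletion, against 11.73, 11.95 and 11.83 in wild type. The 3 genotypes did not overlap, the tup1 arrays being highest and the wild-type arrays lowest.

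RSM7 rose in both deletions. In the tup1 deletion the rise was 0.83 ± 0.13 (adjusted p = 0.00533), or 78.1% above wild type with a 95% interval on the log2 scale of 0.53 to 1.13. In the ssn6 deletion it was 0.45 ± 0.13 (adjusted p = 0.0487), or 36.6%. Both comparisons share the wild-type arrays. Between the deletions RSM7 differed by −0.38 ± 0.14 (ssn6 minus tup1, adjusted p = 0.203), with a 95% interval of −0.71 to −0.05 before adjustment. The tup1 call held under all 16 alternatives tried, with adjusted p up to 0.0372, while the ssn6 call held under 7 of 16, with adjusted p up to 0.286, and was lost without wild-type replicate 1 or 3 or either array of a deletion.

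The gene next to RSM7 rose with it. In the R64 gene order RSM7 (YJR113C) is followed by YJR115W, and by the strand letters of their names the genes are transcribed away from each other. YJR115W, an uncharacterised gene, read 12.82 and 12.79 in the ssn6 deletion, 13.02 and 12.79 in the tup1 deletion, against 12.01, 11.91 and 11.96 in wild type. It rose by 0.85 ± 0.13 in the ssn6 deletion (adjusted p = 0.00538) and by 0.94 ± 0.13 in the tup1 deletion (adjusted p = 0.00352). The gene on the other side, YJR112W-A, had differences of 0.09 ± 0.18 and 0.36 ± 0.18, which did not pass (adjusted p = 0.733 and 0.18). The link between RSM7 and its neighbour was looked at after their values were seen.

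**Figure D3:**
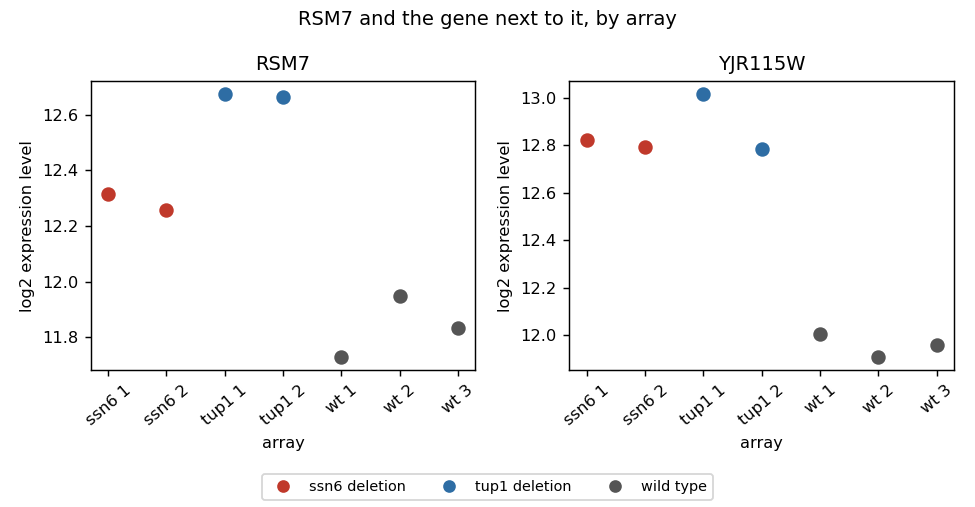
Log2 expression level (vertical axes, separate scales) of RSM7 and of its neighbour YJR115W on each array, coloured by genotype. RSM7 lies between 12.26 and 12.67 in the deletions and between 11.73 and 11.95 in wild type, and YJR115W likewise lies higher in both deletions.

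In the tup1 deletion the set stayed close to wild type. RSM7 was the only one of the 66 genes that passed, with 0 falls, against 23.0% of all genes called in either direction, 10.4% higher and 12.6% lower. At an unadjusted p of 0.05, 3 genes were higher and 1 was lower (6.06% in either direction), against 16.1% higher and 22.2% lower over all genes (38.3% in either direction). The median difference of the 66 genes was −0.04, against −0.08 over all genes, and 36 genes lay below 0 and 30 above. The 95% interval of the difference stayed within 2-fold for 63 of the 66 genes in the tup1 deletion, against 66.0% of all genes. In the ssn6 deletion it did so for 62, against 67.4% of all genes, so these counts do not set the deletions apart. In the tup1 deletion the exceptions were RSM7, MRPS16 (0.47 ± 0.30) and MRPL22 (0.43 ± 0.26), and the wild-type readings of MRPS16 and MRPL22 ranged over 1.05 and 0.87. Without wild-type replicate 2 the median of the 66 genes turned to 0.04, against −0.07 over all genes.

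Further genes leaned in either direction in the tup1 deletion without passing. MRPL6, a large-subunit gene, read 11.59 and 11.53 in the tup1 deletion, against 10.92, 10.97 and 11.39 in wild type (0.46 ± 0.17, adjusted p = 0.0896). MRPS9, of the small subunit, read 12.10 and 12.02 in the tup1 deletion, against 11.81, 11.74 and 11.74 in wild type (0.30 ± 0.12, adjusted p = 0.109). The lowest differences were those of MRPL44 (−0.38 ± 0.21, adjusted p = 0.225), for a large-subunit protein without a bacterial counterpart, and MRPS8 (−0.35 ± 0.15, adjusted p = 0.134), for a small-subunit protein with one. In all, both tup1 arrays lay above all wild-type arrays for 13 of the 66 genes (19.7%), against 22.0% of all genes, and below them for 10 (15.2%), against 30.0%. MRPL39 passed as higher without wild-type replicate 2 and MRPL6 without replicate 3. This made 2 rises in each case, against 12.0% and 9.19% of all genes.

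**Figure D4:**
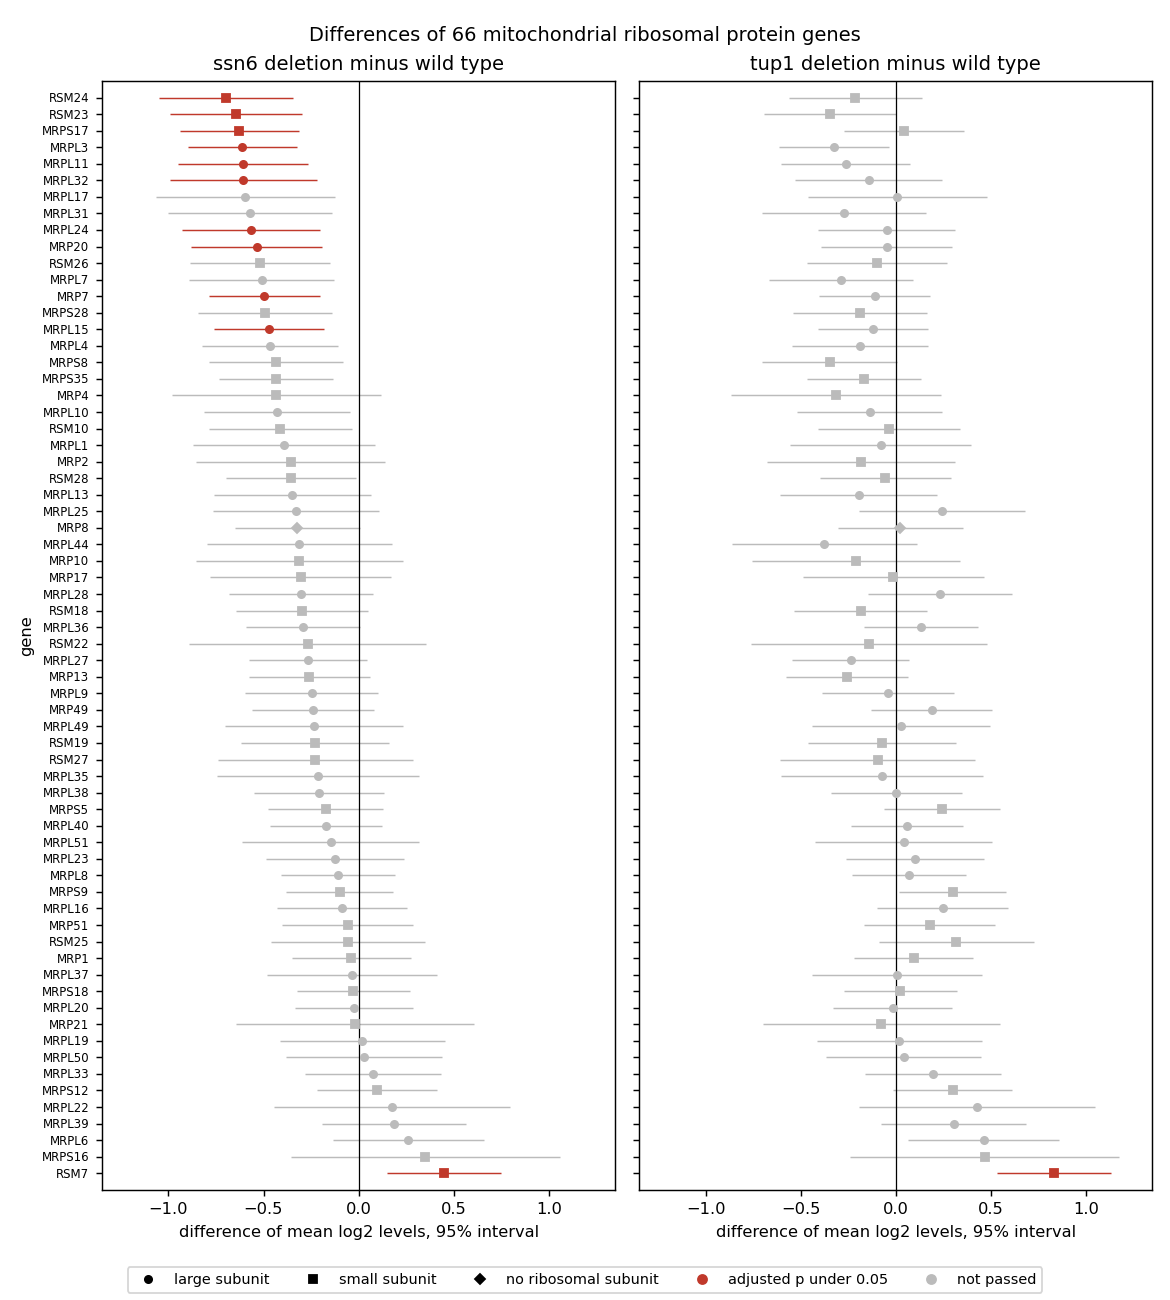
Difference of mean log2 levels from wild type (horizontal axes) with its 95% interval for each of the 66 genes (vertical axis, ordered by the ssn6 difference), in the ssn6 deletion on the left and the tup1 deletion on the right. Red marks genes past an adjusted p of 0.05, which are 10 falls and RSM7 on the left and RSM7 on the right.

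The 10 genes that fell in the ssn6 deletion had differences from −0.35 to 0.04 in the tup1 deletion. None of the 10 passed there (adjusted p from 0.0962 to 0.844). For 5 of the 10, both tup1 arrays lay below all wild-type arrays, against 30.0% of all genes. The 10 were picked by their ssn6 values against the same wild-type arrays, so smaller differences in the tup1 deletion can follow from that choice alone. The choice also favours high wild-type readings, which can raise the share with lower tup1 arrays, so that share adds no separate support. Since both comparisons use the same wild-type arrays, the deletions were also compared with each other. None of the 66 genes passed in that comparison, in which 2.40% of all genes were called in either direction, 1.91% higher and 0.496% lower in the ssn6 deletion. Before adjustment 16 of the 66 genes (24.2%) had a p under 0.05, all lower in the ssn6 deletion, against 9.91% of all genes lower and 9.16% higher (19.1% in either direction). The difference was below 0 for 63 of the 66 genes (95.5%), against 57.7% of all genes. The median was −0.25, against −0.07 over all genes.

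MRPS17 came nearest to the threshold between the deletions, with a difference of −0.67 ± 0.15 (ssn6 minus tup1, adjusted p = 0.0678). It passed without wild-type replicate 2 (adjusted p = 0.0486) and with array weights (adjusted p = 0.0434). MRPL17, for a large-subunit protein without a bacterial counterpart, read 10.64 and 10.18 in the ssn6 deletion, against 11.08 and 10.96 in the tup1 deletion, a difference of −0.61 ± 0.22 (adjusted p = 0.198). At the other end MRPL44 (0.06 ± 0.23) and MRP21 (0.06 ± 0.29) had intervals from −0.47 to 0.60 and from −0.63 to 0.74, which leave room for a change of either sign. Both ssn6 arrays lay below both tup1 arrays for 46 of the 66 genes (69.7%), against 39.2% of all genes.

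The probe sets with the highest and the lowest readings of the set did not pass in any comparison. Readings of different probe sets depend on their probes and give no order of abundance between genes. MRP8 read 12.81 and 12.96 in the ssn6 deletion, 13.27 and 13.20 in the tup1 deletion, against 13.09, 13.36 and 13.18 in wild type. RSM10, for the small-subunit counterpart of bacterial S10, read 12.38 and 12.33 in the ssn6 deletion, against 12.96, 12.81 and 12.53 in wild type (−0.41 ± 0.16, adjusted p = 0.112). MRPS12, for the counterpart of the decoding-site protein S12, read 12.88 and 12.73 in the tup1 deletion, against 12.50, 12.40 and 12.62 in wild type (0.30 ± 0.13, adjusted p = 0.146). RSM25, of the small subunit, read 9.61 and 9.48 in the ssn6 deletion and 9.93 and 9.91 in the tup1 deletion, against 9.49, 9.42 and 9.90 in wild type. RSM22 had differences of −0.27 ± 0.26 and −0.14 ± 0.26.

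Other genes of mitochondrial translation are set beside these. Of 12 further ribosomal subunit genes whose symbols lie outside the naming rule, such as IMG1 and NAM9, 0 passed in the ssn6 deletion, 4 (33.3%) having an unadjusted p under 0.05, close to the 36.2% of all genes. Their median difference was −0.22 in the ssn6 deletion and −0.01 in the tup1 deletion, where 0 passed and 0 had an unadjusted p under 0.05. A list of 12 genes was drawn up for assembly of the mitochondrial ribosome and modification of its RNA, but MTF2 in it has another role. Of these 12 genes, 2 fell in the ssn6 deletion and 1 in the tup1 deletion. The medians of that list were −0.19 and 0.01. Over all genes 10.3% fell in the ssn6 deletion and 12.6% in the tup1 deletion. MAM33, for an acidic protein of the mitochondrial matrix, fell by 0.63 ± 0.13 in the ssn6 deletion (adjusted p = 0.0177) and by 0.56 ± 0.13 in the tup1 deletion (adjusted p = 0.0249). MTG1, for a GTPase that acts in large-subunit assembly, fell by 0.53 ± 0.14 in the ssn6 deletion (adjusted p = 0.0442).

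Genes acting on the ribosome follow. Of all genes, 19.4% were called in the ssn6 deletion and 23.0% in the tup1 deletion. A list of 13 genes was drawn up for translation factors, but it also holds the membrane proteins OXA1, MBA1 and MDM38. In that list RRF1 for the ribosome recycling factor fell in the ssn6 deletion (−0.49 ± 0.13, adjusted p = 0.0434). In the tup1 deletion 0 passed and 1 had an unadjusted p under 0.05. The list's medians were −0.07 in the ssn6 deletion and 0.01 in the tup1 deletion. Of 16 genes for charging mitochondrial transfer RNAs, GTF1, a subunit of the enzyme that makes glutaminyl-tRNA, rose in both deletions (0.88 ± 0.16 in ssn6, adjusted p = 0.0123, and 0.90 ± 0.16 in tup1, adjusted p = 0.0101). MSW1, the tryptophanyl-tRNA synthetase, fell in the ssn6 deletion (−0.72 ± 0.17, adjusted p = 0.0256). Of 16 translational activator genes, CBP3, which acts in cytochrome b synthesis, fell in the ssn6 deletion (−0.59 ± 0.13, adjusted p = 0.0242), and PET494, the activator of COX3 mRNA, rose in the tup1 deletion (0.73 ± 0.18, adjusted p = 0.0304). Both lists lay mostly above 0 in the tup1 deletion, namely 12 of 16 charging genes and 14 of 16 activator genes. Over all genes 56.7% lay below 0 there. The list medians were 0.17 and 0.31, against −0.08 over all genes. In the ssn6 deletion the list medians were −0.07 and 0.02. Between the deletions 15 of 16 charging genes and 14 of 16 activator genes lay below 0 (ssn6 minus tup1), against 57.7% of all genes. The list medians were −0.28 and −0.36, against −0.07 over all genes. In that comparison 0 of either list passed, against 2.40% of all genes. Unadjusted p was under 0.05 for 2 charging and 5 activator genes, against 19.1% of all genes.

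A list of 11 genes was drawn up for mitochondrial transcription and mRNA, but it also holds genes of other roles, namely MIP1, ABF2, MRS2 and NUC1. It gave 1 rise in the ssn6 deletion and 1 rise and 1 fall in the tup1 deletion. Over all genes 9.18% rose and 10.3% fell in the ssn6 deletion, and 10.4% rose and 12.6% fell in the tup1 deletion. Between the deletions 2.40% of all genes were called. MRS1, a splicing factor for mitochondrial introns, rose by 0.60 ± 0.13 in the ssn6 deletion (adjusted p = 0.0186) and by 0.59 ± 0.13 in the tup1 deletion (adjusted p = 0.0182). NUC1, the mitochondrial nuclease, fell by 1.45 ± 0.17 in the tup1 deletion (adjusted p = 0.00152) and was higher in the ssn6 than in the tup1 deletion (0.95 ± 0.18, adjusted p = 0.0499). Among 14 regulator genes, RTG3 of the retrograde pathway fell in the ssn6 deletion (−0.93 ± 0.23, adjusted p = 0.0334). HAP2, for a DNA-binding subunit of the activator of respiratory genes, rose in the tup1 deletion (0.49 ± 0.14, adjusted p = 0.0435) and was lower in the ssn6 than in the tup1 deletion (−0.81 ± 0.15, adjusted p = 0.0461). PUF3, for a protein that binds mRNAs of mitochondrial proteins, read 5.39 and 4.87 in the ssn6 deletion and 5.95 and 5.45 in the tup1 deletion, against 5.80, 7.70 and 6.78 in wild type (adjusted p = 0.0622 and 0.171). Several of these readings lie at or below background.

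**Figure D5:**
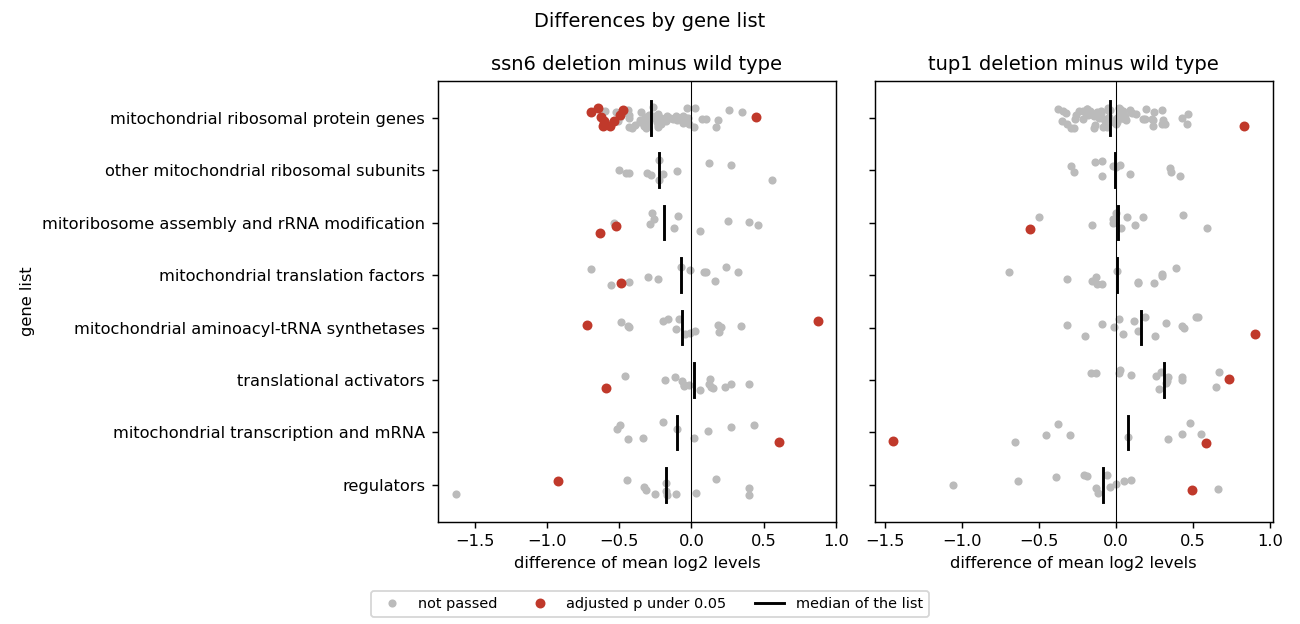
Difference of mean log2 levels from wild type (horizontal axes) for each gene of 8 lists (vertical axis), in the ssn6 deletion on the left and the tup1 deletion on the right, with red points for genes past an adjusted p of 0.05 and a black line at the median of each list. The 66 ribosomal protein genes have medians of −0.28 on the left and −0.04 on the right.

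The 128 genes for proteins of the cytosolic ribosome had median differences of −0.05 in the ssn6 deletion and −0.29 in the tup1 deletion, so the lower median was that of the tup1 deletion, whereas in the mitochondrial set it was that of the ssn6 deletion. Of them 2 (1.56%) rose in the ssn6 deletion, against 9.18% of all genes, and 5 (3.91%) fell in the tup1 deletion, against 12.6% of all genes. The difference was below 0 for 124 of the 128 genes (96.9%) in the tup1 deletion, against 56.7% of all genes. In the ssn6 deletion it was below 0 for 97 (75.8%), against 63.6%. Both tup1 arrays lay below all wild-type arrays for 44 cytosolic genes (34.4%), against 30.0% of all genes. For the ssn6 arrays it was 45 (35.2%), against 39.1%. In some cytosolic genes the tup1 arrays differed widely, such as RPL36A (11.47 and 12.40) and RPS27A (11.48 and 12.25). The weight of tup1 replicate 1 in the cytosolic median was not tested. Between the deletions the cytosolic median was 0.23, against −0.25 for the 66 mitochondrial genes. In that comparison 0 genes of either set passed. Of the 66 mitochondrial genes 24.2% had an unadjusted p under 0.05, all lower in the ssn6 deletion, and of the cytosolic genes 9 (7.03%), all higher, against 19.1% of all genes in either direction. The difference between the sets was not tested.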

How the data were processed

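The authors deposited normalized log2 values for each probe set, between 2.76 and 14.65 in all. The submitters' processing notes name RMA and limma, with no version and no role for either. Of 10928 probe sets, 5498 have 1 budding yeast gene. For 47 genes with several, the probe set with the highest mean was used, leaving 5449 genes. Gene names came from the R64 table, and gene order from the chromosomes and start positions it gives. All 7 arrays entered 1 linear model of genotype (limma 3.58.1, lmFit then eBayes, in R 4.3.3), which had 4 residual degrees of freedom plus 3.19 prior ones. Tests were two-sided, p-values were adjusted by Benjamini-Hochberg over every gene tested, and calls were made at 0.05. Differences are those of mean log2 values with moderated standard errors (median 0.15 for the 66 genes against wild type). If RMA was run with its usual quantile step, a shift common to most genes would be removed. Background is the 95th percentile of 1746 fission yeast probe sets.

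The members, gene lists and tests were chosen with earlier results of these data known. Named genes were the 8 largest changes of each sign past the threshold per comparison (the 2 largest where none passed), the 3 highest and lowest readings, the 3 widest ranges, both genes that encode no core subunit, and up to 3 called genes per list. Others were named after their values were seen. Genes encoded by mitochondrial DNA were not analysed here. The procedure was tested on simulated data. Same-numbered arrays did not deviate together in every pair of genotypes (correlations over genes of −0.27 for ssn6 and tup1, −0.35 for wild type and ssn6, and 0.25 for wild type and tup1). Python 3.11.15 with matplotlib 3.10.9 drew the figures.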

Additional observations from a re-analysis of the deposited data

How the results depend on the processing

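Precision was limited by 2 or 3 arrays per genotype, and all 66 genes were above background. In the ssn6 deletion against wild type, leaving out 1 array at a time gave 0 to 12 falls, 0 to 1 rises and medians of −0.32 to −0.19. In the tup1 deletion it gave 0 falls, 1 to 2 rises and medians of −0.0794 to 0.0393, and between the deletions 0 to 1 genes lower, 0 higher and medians of −0.28 to −0.20. For ssn6 against wild type, median centring left 5 falls (8.06% of all genes), array weights gave 22 falls (24.8% of all genes) and a median of −0.19, a fit of only these genotypes gave 0 rises (8.92% of all genes), and an adjusted p of 0.01 left 0 falls and 0 rises (2.13% and 5.16% of all genes). With array weights 1 of the 66 genes was lower between the deletions, against 2.73% of all genes. The replicate block gave 0 falls and 0 rises in the ssn6 deletion (5.40% and 7.60% of all genes), with a median of −0.31, and kept RSM7 in the tup1 deletion, but the numbers were not shown to pair the arrays. A crossed block of the deletions, chosen after seeing the data, gave 0 calls of either sign, against 3.065% of all genes higher and 1.10% lower. No called gene changed sign under any alternative. The other alternatives were the mean of probe sets, quantile normalization, the background filter and trended robust moderation. They gave 7 to 10 falls in the ssn6 deletion, against 10.3% to 10.6% of all genes. The cause was not tested.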

Other observations

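Genes next to the 66 in the R64 gene order changed in both directions. Of 119 neighbouring genes tested that are not themselves members, 5 rose and 16 fell in the ssn6 deletion and 5 rose and 16 fell in the tup1 deletion, with median differences of −0.24 and −0.12. Among all genes tested 9.18% rose and 10.3% fell in the ssn6 deletion, and 10.4% rose and 12.6% fell in the tup1 deletion. Beside MRP7, which fell in the ssn6 deletion, lies LST8, for a subunit of the TOR kinase complexes, which read 10.99 and 11.16 in the ssn6 deletion and 11.45 and 11.19 in the tup1 deletion, against 12.57, 12.58 and 12.38 in wild type. LST8 fell by 1.43 ± 0.15 in the ssn6 deletion (adjusted p = 0.000892) and by 1.19 ± 0.15 in the tup1 deletion (adjusted p = 0.00208). HRB1, for an RNA-binding protein, on the other side of MRP7, fell by 0.51 ± 0.13 (adjusted p = 0.0302) and 0.44 ± 0.13 (adjusted p = 0.0451).

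Other neighbours went against the member beside them. GCV2, for a subunit of the mitochondrial glycine decarboxylase, is transcribed away from MRPS17. It rose by 0.49 ± 0.13 in the ssn6 deletion (adjusted p = 0.041), where MRPS17 fell, and by 0.67 ± 0.13 in the tup1 deletion (adjusted p = 0.0128). The only members next to each other are MRPS12 and RSM19, neither of which passed, with differences of 0.10 ± 0.13 and −0.23 ± 0.17 in the ssn6 deletion. These neighbours were picked after their values were seen.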
